A study of Mus musculus with 6 samples.

Results

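Lipoxygenases and cyclooxygenases are the enzymes that add oxygen to polyunsaturated fatty acids, and 9 genes were followed here: the 6 lipoxygenases Alox5, Alox8, Alox12, Alox12b, Alox15 and Aloxe3, the lipoxygenase helper Alox5ap, and the 2 cyclooxygenases Ptgs1 and Ptgs2. They were taken by gene symbol from a list of 17577 genes measured in mouse germinal vesicle (GV) oocytes, and 8 of the 9 were listed. Alox12b was not analysed here. The oocytes came from 12-week-old mice of the C57BL/6 J background primed with pregnant mare serum gonadotropin. Bnc1tr/tr mice are homozygous for a small deletion in exon 4 of Bnc1 that shifts the reading frame and creates an early stop, so every cell of the animal carries it, and WT mice carry the intact gene. There were 3 libraries of each genotype, and the study's methods state that comparisons used littermates and that each Smart-seq2 type library started from a single oocyte. The study calls the libraries biological replicates analyzed in duplicate, without saying whether those of 1 genotype came from different mice, so p-values measure the spread between these libraries, which may be in part technical.

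Lipoxygenases insert molecular oxygen at a set position of arachidonic or linoleic acid and yield lipid hydroperoxides, while cyclooxygenases turn arachidonic acid into the precursor of all prostaglandins and thromboxane. Alox12 is the platelet-type enzyme, Alox15 is the reticulocyte and leukocyte type, Alox5 starts leukotriene synthesis with the help of the membrane protein Alox5ap, and Alox12b and Aloxe3 act in sequence on skin barrier lipids. Ptgs1 is the broadly expressed cyclooxygenase, and Ptgs2 is the inducible one, best known in the ovary from cumulus and granulosa cells around ovulation. Lipid hydroperoxides made by lipoxygenases are also one of the routes into lipid peroxidation in ferroptosis, the form of cell death that the study examined.

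Values are FPKM (fragments scaled to transcript length and to the mapped fragments of the library), a measure per length that allows levels to be compared between genes. No read counts were used. From the steps between low FPKM values, depth was estimated at 12.6 to 21.5 M fragments (M, mega) per library, with the weakest signal in WT replicate 3, and a value equal to 3 fragments is called the floor below. Oocyte markers such as Zp3 and Gdf9 were present in all libraries, 12 of 12. Their sum was 15005 to 16392 FPKM in Bnc1tr/tr and 16850 to 18671 FPKM in WT. Of the 12, 0 were called higher and 2 lower (Zp2 and Nlrp5), beside 24.1% and 7.68% of all genes tested. Bnc1 itself had 9.04, 6.51 and 5.83 FPKM in Bnc1tr/tr and 13.17, 12.54 and 16.23 FPKM in WT oocytes. It was lower in Bnc1tr/tr (log2 fold change -0.89, limma adjusted p = 0.00895), and the values cannot show the deletion itself.

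Alox12 was the most abundant lipoxygenase of these oocytes, and it was higher in Bnc1tr/tr. Its level was 11.36, 15.73 and 15.18 FPKM in Bnc1tr/tr replicates 1, 2 and 3 and 6.84, 9.67 and 6.80 FPKM in WT replicates 1, 2 and 3. The lowest Bnc1tr/tr library lay above the highest WT library, and the groups did not overlap. Mean levels were 14.1 ± 2.38 and 7.77 ± 1.65 FPKM (SD, n = 3 each), a ratio of 1.81. On the log2(FPKM + 1) scale the fold change was 0.79 ± 0.20 (SE), with a limma adjusted p of 0.0169 over the 10560 genes whose mean reached 1 FPKM. The median log2 fold change of those genes was 0.15, and Alox12 lay 0.64 above it. By the depth estimate the Alox12 values rested on 283 to 745 fragments, and the gene ranked 5061 of 17577 by mean FPKM.

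**Figure D1:**
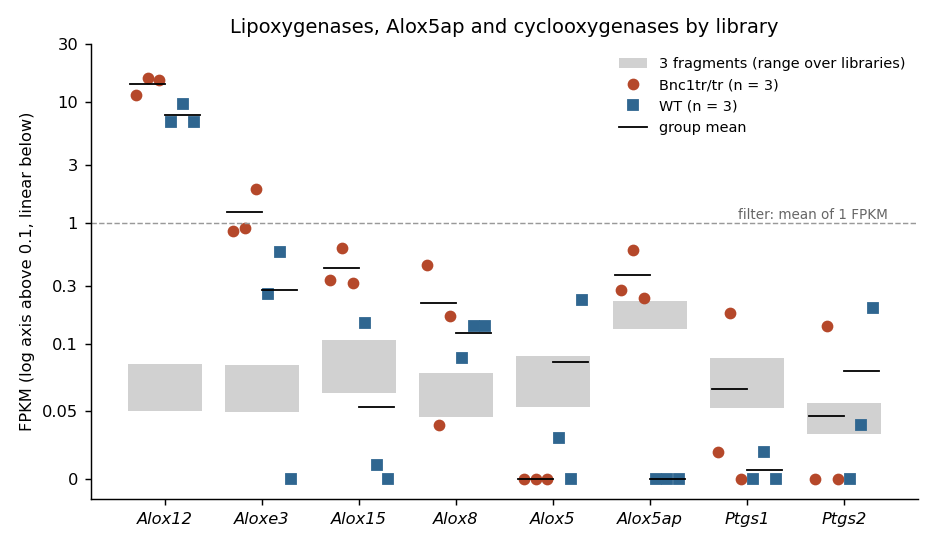
FPKM of each listed gene (x axis) in each library, on an axis that is logarithmic above 0.1 and linear below, with Bnc1tr/tr libraries as circles, WT libraries as squares, group means as black lines and the FPKM of 3 fragments as grey bands. Alox12 is at 6.80 FPKM or more in every library, while the other 7 genes have a mean under 1 FPKM and many values at or under the band.

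The call for Alox12 depended on the scaling and on single libraries, although its direction was the same throughout. Of 15 alternatives, 9 kept a limma adjusted p under 0.05 and 6 did not, and the log2 fold change ran from 0.49 to 0.94. Median-ratio scaling gave 0.59 (limma adjusted p = 0.0563) and quantile normalization 0.49 (limma adjusted p = 0.0979). The limma adjusted p was 0.0624 without Bnc1tr/tr replicate 2, 0.0588 without Bnc1tr/tr replicate 3 and 0.0511 without WT replicate 1. The lone Bnc1tr/tr replicate 3 against WT gave a log2 fold change of 0.90. That alternative was chosen after seeing the data. Its reason was that Bnc1tr/tr replicates 1 and 2 held hemoglobin transcripts and some leukocyte markers that were at 0 in replicate 3, which held other leukocyte markers.

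**Figure D2:**
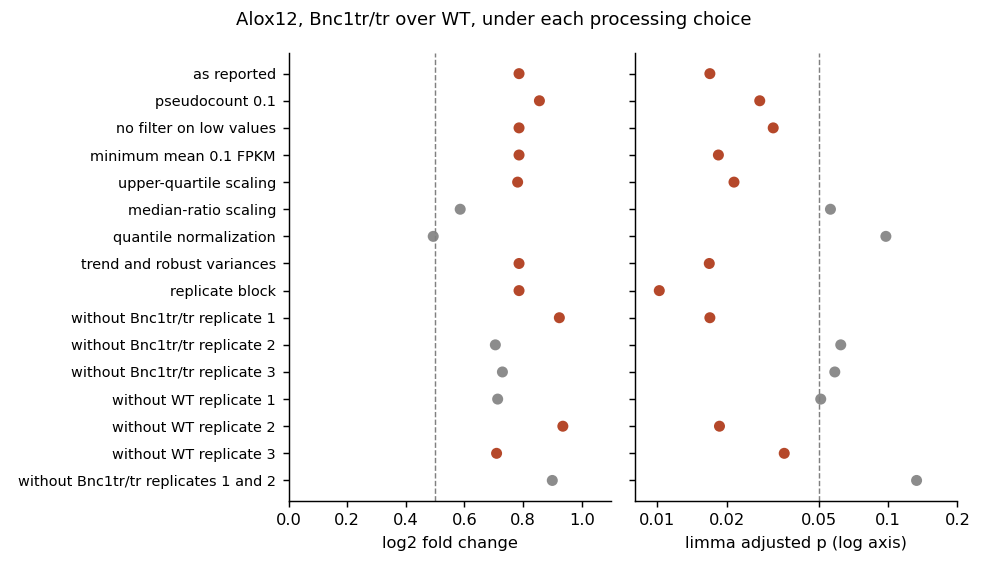
Log2 fold change of Alox12 (left) and its limma adjusted p on a log axis (right) as reported and under each of 15 alternatives (rows). Red points have an adjusted p under 0.05, dashed lines mark 0.5 and 0.05, and all fold changes lie between 0.49 and 0.94.

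Aloxe3, an epidermal enzyme that isomerizes hydroperoxides rather than making them, was the second lipoxygenase by mean level in both groups. It had 0.85, 0.90 and 1.92 FPKM in Bnc1tr/tr and 0.26, 0.58 and 0 FPKM in WT oocytes. All 3 Bnc1tr/tr libraries lay above all WT libraries, with means of 1.22 ± 0.604 and 0.28 ± 0.291 FPKM (SD, n = 3 each). Its overall mean of 0.752 FPKM kept it out of the filtered fit. The ratio of the means was 4.37. In the fit over all 17577 genes the log2 fold change was 0.79 (limma adjusted p = 0.0768), a value that the pseudocount of 1 shrinks for a gene this low, and with a pseudocount of 0.1 it was 2.10 (limma adjusted p = 0.0964). With a minimum mean of 0.1 FPKM in place of 1, Aloxe3 was called at a limma adjusted p of 0.0402, so its call turned on the filter. Without Bnc1tr/tr replicate 3, its highest library, the log2 fold change was 0.58 (limma adjusted p = 0.165).

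Alox15 was near the floor in WT and a little above it in Bnc1tr/tr. It had 0.34, 0.62 and 0.32 FPKM in Bnc1tr/tr and 0.15, 0.01 and 0 FPKM in WT oocytes, where the floor of this gene was 0.0634 to 0.108 FPKM over the 6 libraries. The groups did not overlap, and 3 of 3 Bnc1tr/tr libraries but 1 of 3 WT libraries reached the floor. Means were 0.427 ± 0.168 and 0.0533 ± 0.0839 FPKM (SD, n = 3 each). Without a filter the log2 fold change was 0.43 (limma adjusted p = 0.0488), under the limit of 0.5 used for a call. That call turned on the pseudocount, since with 0.1 in place of 1 the log2 fold change of Alox15 was 1.87 (limma adjusted p = 0.0264), past both limits. With any single library left out, at a pseudocount of 1, the limma adjusted p was between 0.069 and 0.152.

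Alox8, the mouse enzyme that oxygenates arachidonic acid at carbon 8, was detected at low level in both groups, and no difference was detected. It had 0.45, 0.04 and 0.17 FPKM in Bnc1tr/tr and 0.09, 0.14 and 0.14 FPKM in WT oocytes. The WT values lay inside the spread of the Bnc1tr/tr values (log2 fold change 0.11 ± 0.14 SE, limma adjusted p = 0.65 without a filter). The ratio of the means was 1.78, with 0.22 ± 0.210 and 0.123 ± 0.0289 FPKM (SD, n = 3 each). The highest single value rested on about 17 fragments.

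Alox5, the enzyme that opens leukotriene synthesis, was listed at 0 in all 3 Bnc1tr/tr libraries. In WT it had 0.03, 0 and 0.23 FPKM, and only WT replicate 3 exceeded the floor of 0.0534 to 0.091 FPKM. No difference was detected in these libraries (log2 fold change -0.11 ± 0.10 SE, limma adjusted p = 0.503 without a filter). The value of WT replicate 3 corresponds to about 12.9 fragments.

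Alox5ap, which presents arachidonic acid to Alox5 and is not itself an oxygenase, showed the reverse picture. It had 0.28, 0.60 and 0.24 FPKM in Bnc1tr/tr and was listed at 0 in all 3 WT libraries, where 3 fragments would equal 0.134 to 0.194 FPKM. Every Bnc1tr/tr library lay above its own floor, but by a narrow margin, since the values correspond to about 3.68, 10.6 and 4.27 fragments. The log2 fold change without a filter was 0.45 (limma adjusted p = 0.0449), under the limit of 0.5, and no fold is given against a group at 0. With a pseudocount of 0.1 the fitted value was 2.17 (limma adjusted p = 0.00521), past both limits for a call, so this call also turned on the pseudocount. Without each WT library in turn, at a pseudocount of 1, the limma adjusted p was 0.0955 to 0.132. Of the 31-base words of its transcripts, 9.45% also occur on the opposite strand in the transcripts of Gm19719, and since the sources do not say whether counting used strand, reads from the 2 genes cannot be told apart there.

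The cyclooxygenases were at the edge of detection in both genotypes. Ptgs1 had 0.02, 0.18 and 0 FPKM in Bnc1tr/tr and 0, 0.02 and 0 FPKM in WT oocytes, and Bnc1tr/tr replicate 2 alone reached the floor. Ptgs2 had 0, 0.14 and 0 FPKM in Bnc1tr/tr and 0, 0.04 and 0.20 FPKM in WT oocytes, with 1 library of each group at or above the floor. The ranges overlapped for both genes (log2 fold changes 0.08 ± 0.09 and -0.04 ± 0.11 SE, limma adjusted p = 0.606 and 0.824 without a filter). Summed over both genes, the level was 0.02, 0.32 and 0 FPKM in Bnc1tr/tr and 0, 0.06 and 0.20 FPKM in WT (exact two-sided permutation p = 0.90, n = 3 each). Transcripts of Gm43621 hold 3.11% of the Ptgs1 words on the opposite strand.

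Counted together, 1 of the 8 listed genes passed the filter and was called higher, namely Alox12, where 24.1% of the genes tested were called higher and 7.68% lower. In the fit without a filter 1 of 8 was called higher and 0 lower, against 15.5% and 3.82% of all listed genes, and 4 of 8 were higher at an unadjusted p under 0.05 (Alox12, Aloxe3, Alox15 and Alox5ap), as were 25.6% of all listed genes. With a pseudocount of 0.1 and no filter, a setting added after seeing the data, 2 of 8 were called higher (Alox15 and Alox5ap) and 0 lower, against 16.5% of all listed genes called higher, and Alox12 was not called (limma adjusted p = 0.0526). With a minimum mean of 0.1 FPKM 2 of the 5 members tested were called higher (Alox12 and Aloxe3), against 21.4% of the 14517 genes tested. The 4 genes Alox12, Aloxe3, Alox15 and Alox5ap were also the ones whose Bnc1tr/tr libraries all lay above the WT libraries, a pattern shown by 28.2% of all listed genes. For the 3 of them under the filter, the share among genes with a mean under 1 FPKM was also 21.4%. None of the 8 had all Bnc1tr/tr libraries below the WT libraries. Over all genes tested, the calls were 2547 higher and 811 lower, which became 1953 and 1535 after median-ratio scaling and 1670 and 1811 after quantile normalization.

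The order of levels was clear at the top and not below. Alox12 was above every other listed gene in each library, by 13.4, 17.5 and 7.91 times the next gene in Bnc1tr/tr and by 26.3, 16.7 and 29.6 times in WT. The next gene was Aloxe3 in 5 libraries and Alox5 in WT replicate 3. In Bnc1tr/tr the range of Aloxe3 also lay above that of Alox15, whereas Alox15, Alox5ap, Alox8, Ptgs1, Ptgs2 and Alox5, in this order of their means, had ranges that overlapped from each gene to the next. In WT the order after Alox12 was Aloxe3, Alox8, Alox5, Ptgs2, Alox15, Ptgs1 and Alox5ap, and no neighbours among these 7 were separated.

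Summed lipoxygenase transcripts were 13.0, 17.3 and 17.6 FPKM in Bnc1tr/tr and 7.37, 10.4 and 7.17 FPKM in WT oocytes, and the groups did not overlap. The means were 16.0 ± 2.57 and 8.31 ± 1.81 FPKM (SD, exact two-sided permutation p = 0.10, n = 3 each), and 0.10 is the smallest p that 3 against 3 libraries allow. Alox12 made up 87.4%, 91.0% and 86.3% of the sum in Bnc1tr/tr and 92.8%, 93.0% and 94.8% in WT. Its share was thus 5.32 percentage points lower in Bnc1tr/tr, with no overlap (exact two-sided permutation p = 0.10, n = 3 each). The other four listed lipoxygenases together had 1.64, 1.56 and 2.41 FPKM in Bnc1tr/tr and 0.53, 0.73 and 0.37 FPKM in WT (exact two-sided permutation p = 0.10, n = 3 each). In whole-oocyte RNA scaled to its own total, fewer transcripts of a gene and more RNA of other genes cannot be told apart.

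**Figure D3:**
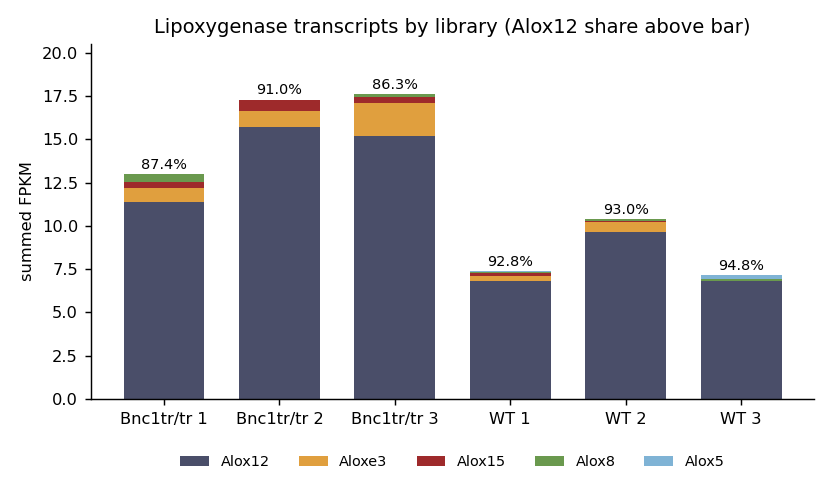
Summed FPKM of the listed lipoxygenases in each library (bars from 0, colored by gene), with the share of Alox12 printed above each bar. The 3 Bnc1tr/tr bars reach 13.0 to 17.6 FPKM and the 3 WT bars 7.17 to 10.4 FPKM, and the Alox12 share is 86.3% to 91.0% against 92.8% to 94.8%.

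Some of these genes are known from blood cells and epithelia, so marker lists of other cell types were read beside them. Platelet and megakaryocyte markers, 5 of 8 listed, summed to 1.59 to 8.93 FPKM in Bnc1tr/tr and 0.43 to 1.25 FPKM in WT. Pf4, a platelet granule chemokine, had 7.61, 1.30 and 0 FPKM in Bnc1tr/tr and 0 in all WT libraries, and Gp9 had 0.04, 0 and 0 FPKM against 0. Gp6 had 1.14, 1.38 and 1.41 FPKM against 0.31, 1.17 and 1.05 FPKM, and Nbeal2 had 0.14 to 0.16 FPKM against 0.04 to 0.12 FPKM. Itga2b was at 0.04 FPKM or less in every library. The part of platelet RNA in the Alox12 values was not tested. Macrophage and leukocyte markers, 11 of 11 listed, summed to 60.6 to 147 FPKM in Bnc1tr/tr and 66.2 to 97.3 FPKM in WT. C1qb gave 53.09, 70.65 and 58.64 FPKM of the sum in Bnc1tr/tr and 64.81 to 95.27 FPKM in WT, and Lyz2 gave 47.97 FPKM in Bnc1tr/tr replicate 2. Of these, 7 (Ptprc, Adgre1, Lyz2, C1qa, Tyrobp, Fcer1g and Cd52) were at 0 in all WT libraries. Lyz2, Tyrobp, Fcer1g, Cd52 and Ptprc were above 0 in Bnc1tr/tr replicates 1 and 2 and at 0 in replicate 3, where Alox5ap had 0.24 FPKM, Adgre1 0.13 FPKM and C1qa 0.61 FPKM. The hemoglobin genes Hba-a1, Hba-a2 and Hbb-bs followed the same libraries, with a sum of 1.04, 10.1 and 0 FPKM in Bnc1tr/tr and 0 in WT. The part of leukocyte RNA in the Alox15 and Alox5ap values was not tested.

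Epithelial and somatic ovarian lists had higher sums in Bnc1tr/tr. Keratinocyte markers, 8 of 13 listed, summed to 30.8 to 37.9 FPKM in Bnc1tr/tr and 20.8 to 23.8 FPKM in WT, and Krt1, Krt15, Dsg3 and Dsc1 were at 0 in all WT libraries. Most of this sum was Krt10 and Trp63, and neither was called. Krt10 had 15.7 against 12.9 FPKM (limma adjusted p = 0.353), and Trp63 10.9 against 7.69 FPKM (limma adjusted p = 0.101). The desmosomal cadherin Dsg1a had 6.35, 6.17 and 6.58 FPKM in Bnc1tr/tr and 0.95, 0.74 and 0.86 FPKM in WT (limma adjusted p = 2.63e-05), and Dsc1 had 1.39, 0.78 and 0.65 FPKM in Bnc1tr/tr (limma adjusted p = 0.0101 without a filter), both higher. Krt1 stood at 0, 0.03 and 0 FPKM in Bnc1tr/tr. Ovarian surface epithelium markers, 6 of 7 listed, summed to 10.8 to 34.2 FPKM in Bnc1tr/tr and 1.02 to 1.74 FPKM in WT, with Krt18 at 0 in WT. Of the 3 tested, 3 were called higher (Krt8, Krt18 and Upk3b) and 0 lower, beside 24.1% and 7.68% of all genes tested. Krt8 gave 22.79 FPKM of the sum in Bnc1tr/tr replicate 1. Granulosa and cumulus markers, 10 of 13 listed, summed to 43.3 to 60.4 FPKM and 22.8 to 39.95 FPKM, and theca and stroma markers, 8 of 9 listed, to 11.05 to 15.3 FPKM and 2.69 to 5.24 FPKM. Members of the granulosa and theca lists went both ways. Cyp19a1 gave most of the granulosa sum, at 35.1 against 23.3 FPKM (limma adjusted p = 0.101). Of the 5 tested, 2 were called higher (Fshr and Kitl) and 0 lower. Inha had 0.693 against 3.42 FPKM (limma adjusted p = 0.239). In the theca list 2 of 2 tested were higher (Cyp11a1 and Dcn), while Hsd3b1 had 0.0333 against 0.843 FPKM. Of all genes tested, 24.1% were higher and 7.68% lower. In the neutrophil and mast cell list, 2 of 7 were listed, and the sum of 39.4 to 46.7 FPKM against 28.0 to 28.7 FPKM was mostly Kit, which oocytes also express. The other one, the granulocyte peroxidase Mpo, had 3.73, 2.59 and 2.26 FPKM in Bnc1tr/tr and 0.23, 0.21 and 0.32 FPKM in WT and was higher (limma adjusted p = 0.00026). Dsg1a, Fshr and Mpo passed the filter through Bnc1tr/tr, with WT means of 0.85, 0.35 and 0.253 FPKM. So did Krt8, Krt18 and Upk3b, with WT means of 0.47, 0 and 0.553 FPKM. The part of RNA from these cell types in the Alox12 and Aloxe3 values was not tested.

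In the GRCm38.p6 assembly, Alox12 lies on the minus strand at chr11:70241457-70255380, and 5 of the 6 lipoxygenase genes lie on that chromosome. Alox15 is 88.8 kb away from Alox12, whereas Aloxe3, Alox12b and Alox8 form a separate group, with Aloxe3 and Alox8 within 72.4 kb of sequence and Alox8 1044 kb from Alox12. Alox5 is on chromosome 6, Alox5ap on 5, Ptgs1 on 2 and Ptgs2 on 1. The RefSeq lncRNA Gm40191 spans all 13924 bases of the Alox12 gene, and its share in the Alox12 reads was not tested. Of the 31-base words of Alox12, 1.28% occur in other genes on the same strand.

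The nearest listed gene on one side of Alox12 was Rnasek, an RNase family membrane protein gene 1.61 kb away, and on the other side it was Alox15. Rnasek had 401.85, 515.94 and 474.45 FPKM in Bnc1tr/tr and 183.12, 186.77 and 212.58 FPKM in WT. It was higher in every Bnc1tr/tr library (log2 fold change 1.25 ± 0.17 SE, limma adjusted p = 0.000683). Within 500 kb on either side of Alox12, a window chosen after the values were seen, 28 of 51 listed genes were tested, and 6 were higher and 5 lower in Bnc1tr/tr, that is 21.4% and 17.9%, beside 24.1% and 7.68% of all genes tested.

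**Figure D4:**
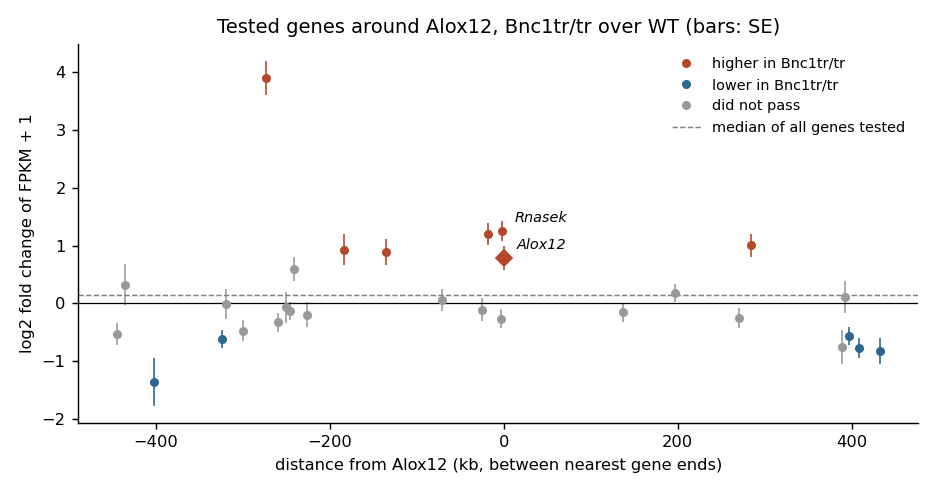
Log2 fold change of FPKM + 1 (Bnc1tr/tr over WT, y axis, bars SE) of each tested gene within 500 kb, against its distance from Alox12 in kb (x axis). Alox12 (diamond, 0.79) and Rnasek (1.25) are both higher in Bnc1tr/tr. The largest difference plotted is that of Cldn7 (3.89, with a WT mean of 0.28 FPKM). The other genes scatter on both sides of the dashed median of all genes tested. Besides Alox12, 6 genes are higher and 5 lower.

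RefSeq promoter entries were held for 6 of the 9 genes, namely Alox5, Alox8, Alox12, Alox12b, Ptgs1 and Ptgs2. The 250 bases upstream of the start are shown for Alox12, the expressed member, and for its paralog Alox8 and the cyclooxygenase Ptgs2, both near the floor. Capitals mark GC boxes (GGGCGG on either strand), the core of Sp1 sites. They lie at chr11:70255371-70255620 and chr11:69197844-69198093, both read from the minus strand, and at chr1:150099781-150100030 on the plus strand (GRCm38.p6), each 5′ to 3′. A window starts from 1 RefSeq transcript, and that of Alox12 begins just inside the outermost end of the gene.
Alox12: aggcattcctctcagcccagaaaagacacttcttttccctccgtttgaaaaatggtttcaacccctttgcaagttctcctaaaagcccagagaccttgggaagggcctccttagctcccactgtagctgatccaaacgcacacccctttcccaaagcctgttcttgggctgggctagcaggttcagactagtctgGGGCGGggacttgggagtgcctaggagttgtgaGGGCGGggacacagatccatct
Alox8: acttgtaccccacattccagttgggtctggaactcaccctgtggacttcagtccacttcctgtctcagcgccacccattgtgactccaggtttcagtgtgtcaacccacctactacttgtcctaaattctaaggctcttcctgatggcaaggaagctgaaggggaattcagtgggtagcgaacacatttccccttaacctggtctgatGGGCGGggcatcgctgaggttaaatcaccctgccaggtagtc
Ptgs2: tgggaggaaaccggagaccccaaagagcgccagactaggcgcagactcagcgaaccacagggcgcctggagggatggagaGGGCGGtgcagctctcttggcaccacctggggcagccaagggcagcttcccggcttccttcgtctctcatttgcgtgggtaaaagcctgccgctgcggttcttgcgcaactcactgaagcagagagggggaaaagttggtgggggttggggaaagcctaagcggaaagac

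The Alox12 window held 2 GC boxes, those of Alox8, Alox5 and Ptgs2 1 each, that of Alox12b 3 and that of Ptgs1 none, while 32.7% of the 32841 RefSeq promoters held at least 1. The letters TATAAA, searched on both strands, were in none of the 6 windows and in 12.4% of all promoters. Alox12 had 4 CpG dinucleotides in its window, as had Alox8, against 5 in Alox5 and Ptgs1, 11 in Alox12b, 13 in Ptgs2 and a median of 6 over all promoters. These counts describe the letters of the windows and are not binding sites.

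Genes whose log2 levels followed Alox12 most closely over the 6 libraries were D330045A20Rik (r = 0.995), Gm38947 (r = 0.9935), Hacd4 (r = 0.992), Adam28 (r = 0.991) and Slc22a30 (r = 0.991). Hacd4 encodes an enzyme of very long chain fatty acid elongation, and Adam28 a membrane-bound metalloproteinase. Of 10559 genes compared, 87 had an r of at least 0.95. These correlations include the difference between the genotypes and come from 6 points, and they are given as a description. Among the listed members, Aloxe3 had an r of 0.896 with Alox12.

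Genes that feed, share or clear the products of these enzymes were read from 8 lists. Of 77 genes 60 were listed and 39 tested, and 12 of these were higher and 4 lower in Bnc1tr/tr, that is 30.8% and 10.3%, beside 24.1% and 7.68% of all genes tested. Their median log2 fold change was 0.30, against 0.15 over all genes tested. With any single library left out, 11 to 13 were higher and 0 to 5 lower, and with Bnc1tr/tr replicate 3 alone against WT 9 were higher and 0 lower. After median-ratio scaling 12 were higher and 8 lower. The filter is a mean over all 6 libraries, so some genes called passed it through 1 group. Pla2g7, Pla2g4e and Hpgd had WT means of 0.187, 0.983 and 0.387 FPKM. Dpep2 and Aifm2 had Bnc1tr/tr means of 0.957 and 0.647 FPKM. The genes in the shares of all genes tested met the same filter.

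Upstream, enzymes of the phospholipase A2 family can release the fatty acid substrates from membranes, though the list was drawn by family name and not by this activity. Of 10 tested, 5 were higher and 1 lower, beside 24.1% and 7.68% of all genes tested. Pla2g16 (Plaat3), a phospholipase known from adipose tissue, had 42.12, 60.07 and 56.90 FPKM in Bnc1tr/tr and 0.91, 0.40 and 2.69 FPKM in WT (log2 fold change 4.64 ± 0.33 SE, limma adjusted p = 1.84e-05). Pla2g7, which hydrolyses platelet-activating factor, had 11.67, 16.68 and 12.81 FPKM against 0.14, 0.17 and 0.25 FPKM (3.62 ± 0.18 SE, limma adjusted p = 2.76e-06). Neither gene overlapped between the genotypes, and 28.2% of all listed genes had every Bnc1tr/tr library above every WT library. The cytosolic phospholipases Pla2g4f, Pla2g4d and Pla2g4e rose with log2 fold changes of 2.77, 1.24 and 1.14, and Pla2g4c, the most abundant of the list, had 118 ± 10.2 FPKM in Bnc1tr/tr and 159 ± 9.25 FPKM in WT (SD, n = 3 each, limma adjusted p = 0.0642). The secreted Pla2g12a was lower (log2 fold change -1.12), but its limma adjusted p was 0.093 without Bnc1tr/tr replicate 1, 0.0961 without Bnc1tr/tr replicate 2, 0.0565 without WT replicate 1 and 0.0822 without WT replicate 2.

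Downstream of the nearly undetected cyclooxygenases, 2 of 8 tested prostanoid synthases were higher and 1 lower. Of all genes tested, 24.1% were higher and 7.68% lower. Ptges, the inducible microsomal synthase of prostaglandin E, had 6.94, 9.70 and 7.95 FPKM in Bnc1tr/tr and 1.5, 0.92 and 1.48 FPKM in WT (log2 fold change 1.999 ± 0.19 SE). Ptgds, the lipocalin-type synthase of prostaglandin D, had 25.69, 19.84 and 25.63 FPKM and 1.73, 3.13 and 2.92 FPKM (2.80 ± 0.21 SE). The ranges of both genes were apart, with limma adjusted p of 8.45e-05 and 2.48e-05. Every Bnc1tr/tr library lay above every WT library for 28.2% of all listed genes. Akr1b3, an aldose reductase and the most abundant of the list, was lower at 317 ± 42.2 against 513 ± 113 FPKM (SD, n = 3 each, log2 fold change -0.68, limma adjusted p = 0.0364). Its limma adjusted p was 0.0603, 0.0722 and 0.121 without Bnc1tr/tr replicate 1, 2 or 3 and 0.108 and 0.112 without WT replicate 1 or 2.

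Of 4 leukotriene enzymes tested 0 were higher and 1 was lower. The counts of this paragraph stand beside 24.1% higher and 7.68% lower of all genes tested. Dpep2, a dipeptidase that trims cysteinyl leukotrienes, had 0.81, 1.19 and 0.87 FPKM in Bnc1tr/tr and 1.63, 3.15 and 4.58 FPKM in WT (log2 fold change -1.01, limma adjusted p = 0.0183). Its limma adjusted p was 0.0609 without Bnc1tr/tr replicate 1, 0.0565 without replicate 3 and 0.0601 without WT replicate 2. Mgst3, the most abundant of this list, had 360 ± 42.4 and 416 ± 59.0 FPKM (SD, n = 3 each, limma adjusted p = 0.427). Enzymes that clear the products included Ephx2, the soluble epoxide hydrolase, with 6.42 ± 0.821 and 1.99 ± 0.289 FPKM (log2 fold change 1.31, limma adjusted p = 0.000519), which was 1 of 2 epoxide hydrolases tested. Ephx4 had 4.39 and 5.96 FPKM (limma adjusted p = 0.337). Hpgd, which inactivates prostaglandins, had 2.81, 0.99 and 2.2 FPKM in Bnc1tr/tr and 0.31, 0.85 and 0 FPKM in WT (log2 fold change 1.11, limma adjusted p = 0.0197), and was the 1 gene called among 4 of degradation and transport. Without Bnc1tr/tr replicate 1 or 3 its limma adjusted p was 0.0729 and 0.065, and the most abundant gene of that list, Ptgr1, had 48.8 and 38.8 FPKM (limma adjusted p = 0.316). Of 3 eicosanoid receptors tested, 0 were called, and Cysltr2 stood at 3.33 and 3.26 FPKM (limma adjusted p = 0.859).

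Lipid hydroperoxides, the products of lipoxygenases, are reduced by peroxidases. The list read for this step also held genes that are not peroxidases, such as Gch1 and Aifm2. Of its 6 genes, 3 were higher and 1 lower. Of all genes tested, 24.1% were higher and 7.68% lower. Gpx1, a soluble glutathione peroxidase, had 203.51, 157.86 and 138.59 FPKM in Bnc1tr/tr and 18.96, 19.25 and 17.62 FPKM in WT (log2 fold change 3.08 ± 0.19 SE, limma adjusted p = 6.73e-06). Prdx6, a peroxiredoxin that acts on phospholipid hydroperoxides, had 69.95, 38.24 and 42.70 FPKM and 11.06, 8.05 and 5.46 FPKM (2.48 ± 0.29 SE, limma adjusted p = 0.000275). Gch1, which starts tetrahydrobiopterin synthesis, had 72.1 ± 16.9 and 28.8 ± 4.65 FPKM (SD, n = 3 each, log2 fold change 1.28). Each of these 3 genes was higher in all Bnc1tr/tr libraries than in any WT library, as were 28.2% of all listed genes. Gpx4, the main reductase of membrane lipid hydroperoxides, had 148 ± 14.9 and 148 ± 22.9 FPKM (log2 fold change 0.01 ± 0.18 SE, limma adjusted p = 0.986), and its sign depended on the scaling. Aifm2, an oxidoreductase that regenerates the antioxidant form of coenzyme Q, was lower at 0.647 ± 0.298 against 2.10 ± 0.966 FPKM (log2 fold change -0.89, limma adjusted p = 0.0221), with limma adjusted p of 0.0761 and 0.0754 without Bnc1tr/tr replicate 1 or 2. Of the lipoxygenase partners and other lipid oxidants, 0 of 2 tested were called, and Pebp1, which binds Alox15, had 102.5 ± 14.7 and 134.5 ± 42.3 FPKM (SD, n = 3 each, limma adjusted p = 0.344, and 0.0334 with a lower level in Bnc1tr/tr without WT replicate 3).

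**Figure D5:**
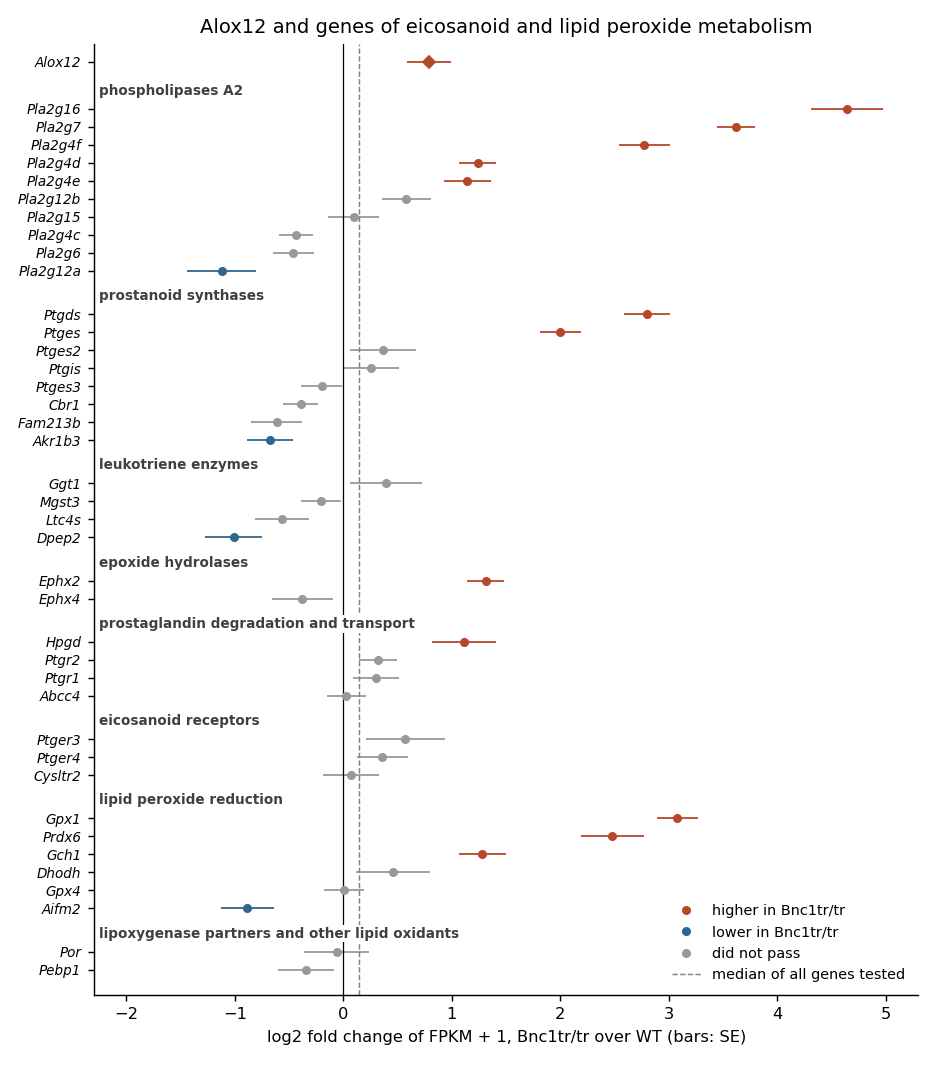
Log2 fold change of FPKM + 1 (Bnc1tr/tr over WT, x axis, bars SE) of Alox12 (diamond) and of the 39 tested genes of the 8 lists, grouped by role, with the median of all genes tested as a dashed line. Red genes are higher (12) and blue genes lower (4) in Bnc1tr/tr, and the largest differences belong to Pla2g16 (4.64), Pla2g7 (3.62) and Gpx1 (3.08).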

How the data were processed

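The deposited values were FPKM per gene, 1 file per library, which the authors computed from Smart-seq2 type reads of 3 Bnc1tr/tr and 3 WT oocyte samples, grouped as in their labels. The submitters' processing notes name HISAT2 2.0.4, Bowtie2 2.2.5, RSEM 1.2.12 and GRCm38.p6, without roles, and the strandedness of counting is not given in the sources used here. Gene symbols that a spreadsheet had turned into dates (25) were restored by gene ID. FPKM are relative to each library and amplified cDNA carries no molecular identifiers, so floors cover counting error only. Depth was estimated from steps between the low FPKM of 934 single-transcript genes and entered no test.

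Limma 3.58.1 (R 4.3.3) was fitted to log2(FPKM + 1) where a gene's mean reached 1 FPKM, with Benjamini-Hochberg adjustment over those genes. Calls needed an adjusted p below 0.05 together with a log2 fold change beyond 0.5 in either direction. Genes under the filter were read from the fit over all listed genes. Fold changes on this scale understate those of low genes. Sums and shares were compared by exact two-sided permutation. The code was tested on simulated data. Alternatives were pseudocount 0.1, other filters, 3 scalings, trend and robust variances, the replicate number as a block and each library left out.

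Named were all 9 members and Bnc1, of each pathway list the genes called and the most abundant one, defining markers, the 5 genes most like Alox12, and its nearest listed neighbours. Members and lists were chosen with earlier results of these data known. Sequences, gene positions and promoters came from RefSeq tables of the same build, and transcript words from GENCODE. Figures and tables used Python 3.11.15, pandas 2.3.3, numpy 2.4.6 and matplotlib 3.10.9.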

Additional observations from a re-analysis of the deposited data

How the results depend on the processing

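Of the alternatives for the 8 listed genes, 77 values kept direction and side of an adjusted p of 0.05, 28 lost an adjusted p under 0.05, 1 gained it and 4 changed sign. Among the 77, Alox15 and Alox5ap passed the fold limit of 0.5 with a pseudocount of 0.1, at 1.87 and 2.17, and would then be called. The number of listed genes called was 2 with a minimum mean of 0.1 FPKM, where Aloxe3 joined Alox12, 2 with a pseudocount of 0.1 and no filter, where Alox15 and Alox5ap were called and Alox12 was not, and 0 with median-ratio scaling, with quantile normalization and without Bnc1tr/tr replicates 1 and 2. It was 0 to 1 with single libraries left out. Over all genes tested, quantile normalization gave 1670 higher and 1811 lower, and median-ratio scaling 1535 lower. Without Bnc1tr/tr replicates 1 and 2, an alternative chosen after seeing the data, 880 genes were called, 770 higher and 110 lower, with 1 library left in that group and assumed to vary like the WT libraries. Leaving out single libraries gave 2323 to 3539 genes called and 418 to 1041 lower. The cause of these shifts was not tested, and a fit without a library also has fewer samples.

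Values that changed sign belonged to genes without a call. Alox8 became -0.10 after quantile normalization and ran from -0.0259 to 0.21 with single libraries left out, Ptgs2 from -0.11 to 0.0347, Cysltr2 from -0.15 to 0.35 and Gpx4 from -0.13 to 0.0885. Without Bnc1tr/tr replicates 1 and 2 the log2 fold change was -0.0095 for Ptgs1, 0.14 for Ephx4, -0.0452 for Cysltr2 and -0.15 for Gpx4. Cysltr2 was -0.0996 under median-ratio scaling and -0.34 when quantile normalized, and Gpx4 was -0.0001 after upper-quartile scaling and -0.22 after median-ratio scaling. The difference of summed cyclooxygenase FPKM ran from -0.0767 to 0.0833.

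Deviations of same-numbered libraries from their group means correlated at 0.28, -0.0344 and 0.12, and those of differently numbered libraries at -0.25 to 0.16. These few values cannot decide whether the numbers mark pairs. The labels do not say whether a shared number means a shared litter, and the numbers were not read as pairs. A fit with the number as a replicate block called 3733 genes, 2781 higher and 952 lower, and Alox12 kept its call (limma adjusted p = 0.0102), whereas Alox15 and Alox5ap had limma adjusted p of 0.0931 and 0.0743. Values under the floor rest on fewer than 3 fragments by the depth estimate, and the floor does not cover the spread between libraries.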
